A study of Arabidopsis thaliana with 16 samples.

Results

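Of the 15145 mRNA transcripts in the deposited RNA structure tables of Arabidopsis leaf nuclei, 604 had 20 or more exons, and these belonged to 400 of 10637 genes. They were chosen by exon number alone, as given in each transcript's gene model. The median member had 23 exons, 3616 nt of spliced sequence and a coding sequence (CDS) of 3147 nt. Exactly 20 exons were found in 105 transcripts, 30 or more in 100 and 40 or more in 32, and ATM, the kinase that signals DNA breaks, had most with 79. A CDS was marked in 563 transcripts and not in 41, and 155 genes had several member transcripts, at most 5. A gene is represented below by its transcript with most exons. Their internal exons, with a median of 106 nt, and their introns, with a median of 103 nt, were close in size to those of genes of 10 to 19 exons, where the medians were 103 and 98 nt.

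Protein interaction profile sequencing (PIP-seq) reads both the structure of RNA and the places where proteins cover it. Nuclei were isolated from 4-week-old rosette leaves by INTACT, which pulls down nuclei that carry a biotin-tagged envelope protein. All plants were of the UBQ10:NTF/ACT2p:BirA line in the Columbia-0 ecotype, in which the nuclear tag and the biotin ligase are driven by promoters active in most cells, so the nuclei are a mix of leaf cell types. The files hold no expression values against which the tissue could be checked. Leaves were control-treated or salt-treated, and formaldehyde fixed the proteins to the RNA.

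Each condition had 2 replicates and each replicate 4 libraries, 16 in all. RNA was cut with an RNase specific for double strands (dsRNase) or for single strands (ssRNase), either with the proteins in place (footprinting) or after they had been digested away (structure only). The authors called a protein protected site (PPS) where footprinting reads exceeded structure-only reads, at a false discovery rate of 5%. They deposited 4 lists, 1 per replicate. Values are given below in the order control-treated replicate 1, control-treated replicate 2, salt-treated replicate 1, salt-treated replicate 2. The structure tables hold 1 score per base and condition, with the replicates merged, so scores have no replicate check.

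Every intron is removed by the spliceosome, which assembles anew on each one, and a mature mRNA keeps proteins deposited upstream of its exon junctions until it is translated. Long plant genes with many exons encode mostly large proteins such as motor proteins, membrane traffic factors, chromatin remodellers, callose synthases and protein kinases. RNA in the nucleus is a mix of unspliced, partly spliced and finished molecules, so sites in exons and in introns can both be read.

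The 4 lists were not complete in the same places. Calls of a given RNase in genes of a given strand were missing from long stretches of the genome in 1 or more lists. In 1-Mb windows in which the richest list held at least 20 PPSs in other genes, a list was taken to lack calls where it held under 10% of the richest. For dsRNase calls in + strand genes, 7, 56, 63 and 14 of 105 windows lacked calls, and in − strand genes 42, 8, 0 and 36 of 104. For ssRNase calls the gaps were wider, with 100, 78, 33 and 0 of 102 windows in + strand genes and 0, 0, 16 and 104 of 107 in − strand genes. Of 418 such windows, 85 held calls in all 4 lists, and 379 of the 400 genes lay in a window that some list lacked.

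The members' PPSs were uneven between lists by RNase and gene strand, as were those of other genes. In the 197 genes on the + strand, ssRNase gave 1, 171, 487 and 921 PPSs, and in the 203 genes on the − strand 1691, 1505, 936 and 28. For dsRNase the numbers were 1380, 395, 390 and 741 on the + strand and 470, 819, 1470 and 513 on the − strand. A gene with 0 PPSs in a list may therefore lie in a stretch for which that list has no calls. The lists also shared calls with the same start, end and score, so that 68.3, 71.5, 70.4 and 73.0% of the members' PPSs had an identical call in another list, and lists are not independent of each other. The strand printed for a call was that of the gene in 36.7, 67.5, 82.7 and 58.4% of cases, and PPSs were therefore counted on either strand.

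**Figure D1:**
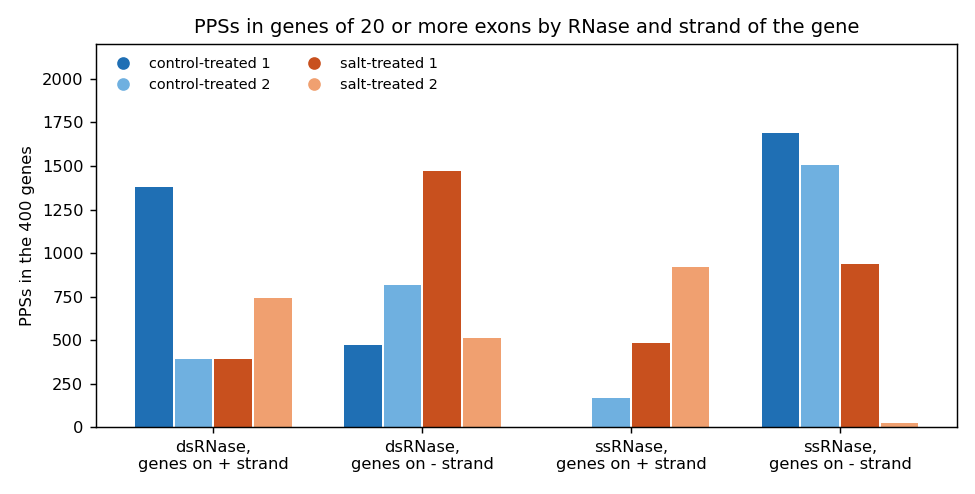
PPSs in the 400 genes of 20 or more exons in each of the 4 lists (bars, number of PPSs), split by the RNase of the call and the strand of the gene. A PPS called with both RNases counts under each. In + strand genes control-treated replicate 1 held 1 ssRNase PPS, and in − strand genes salt-treated replicate 2 held 28.

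The regions that carried a PPS in every list are the ones least touched by these gaps, and some are shown here for genes that the results turn on. Each is written 5′ to 3′ along the mRNA from the TAIR10 genome, and capitals mark the bases covered in all of the lists that hold the region. The regions in exons all lie in the CDS. They come from MOR1 (exon 44 of 53, chr2:14977918-14977986, +), AT3G01310 (exon 7 of 31, chr3:100269-100339, −), the clathrin heavy chain gene AT3G08530 (exon 29 of 30, chr3:2587428-2587494, −), LACS6 (exon 2 of 23, chr3:1791470-1791511, −), SEC8 (exon 22 of 27, chr3:3221029-3221106, −), F2KP (exon 11 of 23, chr1:2181379-2181456, −), AT4G17140 (exon 54 of 66, chr4:9618507-9618568, −) and SEX1 (exon 16 of 35, chr1:3586343-3586436, −).
MOR1: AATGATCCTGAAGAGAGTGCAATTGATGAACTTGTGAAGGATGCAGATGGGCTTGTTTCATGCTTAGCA
AT3G01310: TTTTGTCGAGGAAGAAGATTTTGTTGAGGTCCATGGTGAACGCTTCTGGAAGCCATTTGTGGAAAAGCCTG
AT3G08530: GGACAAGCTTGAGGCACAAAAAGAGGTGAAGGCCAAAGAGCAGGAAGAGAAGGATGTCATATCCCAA
LACS6: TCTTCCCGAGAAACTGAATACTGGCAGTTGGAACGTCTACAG
SEC8: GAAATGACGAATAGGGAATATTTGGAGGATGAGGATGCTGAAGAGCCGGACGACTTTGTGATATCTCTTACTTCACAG
F2KP: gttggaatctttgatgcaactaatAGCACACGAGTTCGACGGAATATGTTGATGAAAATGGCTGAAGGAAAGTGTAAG
AT4G17140: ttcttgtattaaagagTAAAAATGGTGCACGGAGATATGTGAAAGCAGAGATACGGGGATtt
SEX1: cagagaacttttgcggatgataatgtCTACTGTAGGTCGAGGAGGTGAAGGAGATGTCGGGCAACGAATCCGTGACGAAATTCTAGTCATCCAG

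The MOR1, AT3G01310, AT3G08530, LACS6 and SEC8 regions were called with the same borders in every list. Their caller scores were likewise the same in all 4 lists, at 31.29 for MOR1, 16.78 for AT3G01310, 15.39 for both AT3G08530 and SEC8, and 21.46 for LACS6. The F2KP region differed between lists in its 5′ part and scored 32.73, 32.73, 30.81 and 24.21. The GC content of these 8 regions ran from 37.1% in AT4G17140 to 47.9% in SEX1, around the members' median of 43.3% over the CDS.

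Regions in introns are shown for the 3 genes with most intronic PPSs. The AT1G01320 region lies in intron 3 of 24 (chr1:129491-129582, −) and was in all 4 lists, the P5CS1 region in intron 17 of 20 (chr2:16598931-16599005, −) was in 3 lists, and the SEC8 region in intron 13 of 26 (chr3:3223859-3223922, −) was in all 4. The P5CS1 and SEC8 regions end on the last base of their intron.
AT1G01320: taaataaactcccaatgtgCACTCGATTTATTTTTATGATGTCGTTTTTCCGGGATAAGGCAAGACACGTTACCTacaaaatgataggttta
P5CS1: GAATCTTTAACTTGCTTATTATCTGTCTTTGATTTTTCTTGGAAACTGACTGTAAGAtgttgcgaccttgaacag
SEC8: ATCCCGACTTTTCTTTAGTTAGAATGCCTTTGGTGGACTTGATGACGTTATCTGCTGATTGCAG

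PPSs were denser in the exons of the 400 genes than in those of genes with fewer exons, in every list. With a PPS assigned by its midpoint, the members held 2.02, 1.58, 1.76 and 1.27 exonic PPSs per kb of exon, a mean of 1.66 ± 0.316 (SD over the 4 lists). Depth and transcript abundance were unknown, and what part they play in such densities was not tested. Nor can bulk nuclei tell fewer cells with an mRNA from less of it per cell. The 9263 genes of 2 to 19 exons held 1.20, 0.931, 1.07 and 0.897 per kb. Within lists the ratio was 1.68, 1.70, 1.65 and 1.41, a mean of 1.61 ± 0.135. It was above 1 in 4 of 4 lists, where an exact paired test could not give a two-sided p below 0.125, and no test was made since lists share calls.

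Density rose with the number of exons from genes of 1 exon to members in every list, and further among the members in 3 of the 4 lists. Genes of 1 exon held 0.829, 0.637, 0.676 and 0.558 PPSs per kb, those of 2 to 9 exons 1.09, 0.827, 0.943 and 0.811, and those of 10 to 19 exons 1.43, 1.14, 1.31 and 1.07. Among members, the 251 genes of 20 to 24 exons held 1.67, 1.30, 1.44 and 1.17 and the 82 genes of 25 to 29 exons 2.27, 1.58, 1.94 and 1.47. The 46 genes of 30 to 39 exons held 2.40, 2.01, 2.27 and 1.20 and the 21 genes of 40 to 79 exons 2.82, 2.50, 2.45 and 1.44, so salt-treated replicate 2 was highest at 25 to 29 exons and lower above. Exon number goes with length, and the ratio was smaller against genes of like length. Against the 799 genes of 2 to 19 exons with at least 2935 nt of exon, the lower quartile of members, the ratio was 1.33, 1.47, 1.48 and 1.18 (mean 1.36 ± 0.143).

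The higher exonic density was seen on both gene strands and where all lists held calls. On the + strand the members held 1.74, 0.690, 1.05 and 1.99 exonic PPSs per kb against 1.18, 0.478, 0.728 and 1.43 in genes of 2 to 19 exons. On the − strand they held 2.27, 2.41, 2.42 and 0.595 against 1.22, 1.39, 1.41 and 0.352. For dsRNase calls in windows that all 4 lists covered, the 138 members there held 1.44, 1.23, 1.98 and 1.17 per kb and 3458 genes of 2 to 19 exons 0.956, 0.741, 1.15 and 0.730. The order of the classes was thus the same although each list's own level followed the strand.

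The step at the rule's threshold was not a jump. The 87 genes of 19 exons held 1.86, 1.40, 1.68 and 1.66 exonic PPSs per kb, and the 69 genes of 20 exons held 1.45, 1.11, 1.36 and 1.16. Genes of 20 exons were thus below those of 19 exons in all 4 lists. Genes of 18 exons held 1.52, 1.16, 1.25 and 1.02, below those of 20 exons in both salt lists and above them in both control lists. Genes of 21 exons held 1.83, 1.37, 1.27 and 1.22.

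**Figure D2:**
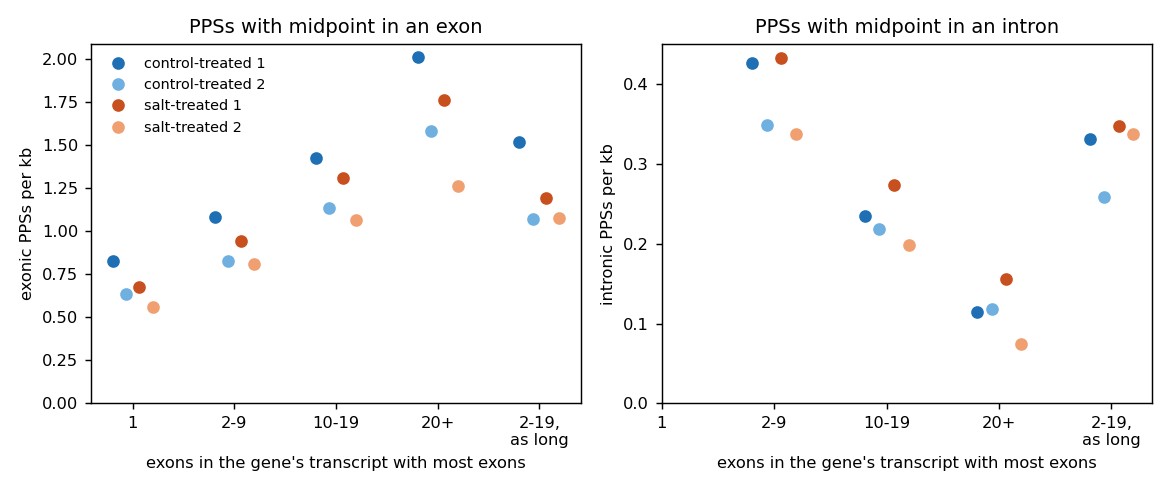
PPSs per kb of exon (left) and per kb of intron (right) in each of the 4 lists (points), by the number of exons of the gene. The last position holds genes of 2 to 19 exons whose exons sum to at least 2935 nt. Among the classes shown, exonic density was highest and intronic density lowest in genes of 20 or more exons in each list.

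Introns of the same genes showed the reverse order between the classes, but not throughout among the members. The members held 0.114, 0.118, 0.156 and 0.0743 intronic PPSs per kb of intron (mean 0.116 ± 0.0334), and genes of 2 to 19 exons 0.341, 0.292, 0.362 and 0.277. The ratio of members to these genes was 0.335, 0.404, 0.431 and 0.269, with a mean of 0.360 ± 0.0728. Against genes of 2 to 19 exons with as long exons it was 0.367 ± 0.110. Among the members, genes of 20 to 24 exons held 0.108, 0.0937, 0.136 and 0.0805 intronic PPSs per kb. Those of 25 to 29 exons were higher in each list, at 0.169, 0.184, 0.220 and 0.0922. Genes of 30 to 39 exons held 0.0711, 0.100, 0.134 and 0.0376. Those of 40 to 79 exons were again higher in each list, at 0.0931, 0.118, 0.149 and 0.0621. Near the threshold the order was mixed. Genes of 18 exons held 0.126, 0.0882, 0.151 and 0.143 intronic PPSs per kb and those of 19 exons 0.268, 0.199, 0.294 and 0.216. Genes of 20 exons held 0.0940, 0.0836, 0.131 and 0.0679. Genes of 18 exons were thus below the members as a whole in control-treated replicate 2 and salt-treated replicate 1.

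Exonic density in the members was thus between 11.3 and 17.6 times the intronic density in the 4 lists, and in genes of 2 to 19 exons 3.52, 3.19, 2.94 and 3.24 times. The first introns of the members held 0.142, 0.173, 0.173 and 0.112 PPSs per kb, the last 0.156, 0.136, 0.233 and 0.117, and those between 0.111, 0.113, 0.152 and 0.0699. Between 6 and 17 PPSs stood behind each of the first and last intron values, so a difference between them was not detectable at these numbers. Intronic PPSs were found in 122 of the 400 genes.

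PPSs across an exon border were also rarer per intron in the members. They had 3.26, 3.00, 4.14 and 2.77 such PPSs per 100 introns, against 6.55, 5.89, 6.93 and 6.17 in genes of 2 to 19 exons. This was so although borders were closer together in the members, with 12.4 per kb of exon against 6.88. Of the members' PPSs, 87.3, 84.8, 81.7 and 84.5% lay wholly in 1 exon, and their median length was 51, 50, 49 and 50 nt.

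Along the mRNA, PPSs of the members lay mostly in the CDS and least often in the 3′ UTR. In the 367 genes whose representative transcript had a CDS, the 3′ UTR held 0.396, 0.328, 0.357 and 0.203 PPSs per kb, and the 5′ UTR 0.992, 0.846, 0.758 and 0.525. When the CDS was cut into 5 equal parts, the second held 2.61, 2.13, 2.31 and 1.66 per kb and the last 2.05, 1.57, 1.85 and 1.32. The second part was highest and the last part lowest within the CDS in all 4 lists. In genes of 2 to 19 exons the 3′ UTR held 0.420, 0.324, 0.383 and 0.294 per kb, close to the members' values, while their CDS parts held between 1.07 and 1.55. Against these genes, the members' higher density therefore lay in the CDS and the 5′ UTR and was not seen in the 3′ UTR. In genes of 2 to 19 exons with as long exons, the 5′ UTR held 0.840, 0.718, 0.659 and 0.585 per kb. This was above the members in salt-treated replicate 2 only. Their 3′ UTR held 0.565, 0.400, 0.528 and 0.441 per kb, above the members in all 4 lists.

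**Figure D3:**
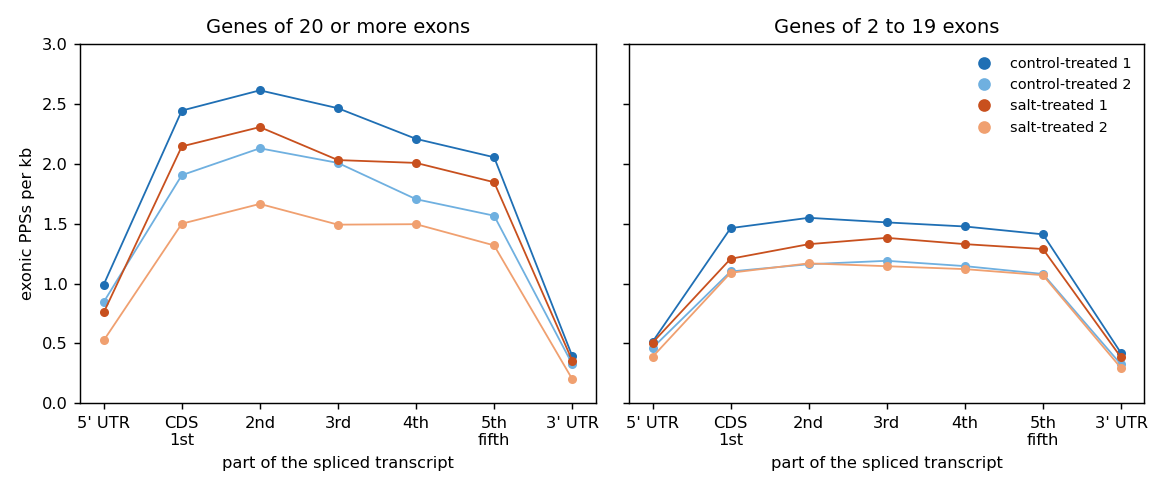
Exonic PPSs per kb along the spliced mRNA (5′ UTR, 5 equal parts of the CDS, 3′ UTR) in each of the 4 lists (lines), for 367 genes of 20 or more exons (left) and 8904 genes of 2 to 19 exons (right). The second part of the CDS is the highest in the members in each list.

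The 400 genes held 3365, 2681, 3027 and 2116 PPSs, which was 9.50, 9.56, 9.35 and 8.10% of each list's nuclear PPSs. Merged over lists they made 4508 distinct regions, of which 1309 were in 1 list, 1592 in 2, 1036 in 3 and 571 in all 4. Sites were spread unevenly over genes, with a median of 17 PPSs per gene over the 4 lists (quartiles 4 and 39). The 40 genes with most held 37.2% of them and 57 genes held none. Of the members 85.8% had a PPS in some list, against 83.9% of genes of 2 to 19 exons with as long exons. The number of PPSs went only weakly with spliced length (Spearman rho 0.22) and with exon number (0.24) over the 400 genes, which share libraries and are not replicates.

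The gene with most sites, and the longest member at 13193 nt and 66 exons, was AT4G17140, which encodes a protein with a pleckstrin homology domain, a fold that binds membrane lipids. It held 75, 58, 106 and 29 PPSs, 268 in all, in 91 distinct regions of which 27 were in every list. AT1G48090, of a family annotated as calcium-dependent lipid-binding proteins and nearly as long at 12995 nt, held 71, 86, 42 and 15 PPSs. AT1G01320, which encodes a protein with tetratricopeptide repeats, held 72, 80, 63 and 19 on 6049 nt. In all 3 genes, each on the − strand, salt-treated replicate 2 was the lowest list.

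MOR1, which organizes cortical microtubules, was the only one of the 10 leading genes on the + strand. It held 54, 20, 26 and 41 PPSs, with 20 of its 42 regions in all 4 lists, and here control-treated replicate 2 was the lowest. SEX1, the dikinase that phosphorylates starch so that it can be broken down, held 37, 46, 37 and 15. The 3 other lists differed from each other by less than either differed from salt-treated replicate 2.

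GSL8, a callose synthase needed at the cell plate, held 39, 46, 37 and 0 PPSs, and its 40 regions included none that was in all 4 lists. AT3G01310, annotated as a myo-inositol hexakisphosphate kinase, held 25, 29, 38 and 19, and the myosin XI gene XIK, whose motor drives organelles along actin, held 40, 16, 42 and 11. AT5G11700 held 38, 12, 44 and 14. The clathrin heavy chain gene AT3G08530 (CHC2), which forms the coat of endocytic vesicles, held 29, 37, 32 and 9. In XIK and AT5G11700 the first replicate of each condition was above the second, whereas in AT3G08530 salt-treated replicate 2 alone was low.

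**Figure D4:**
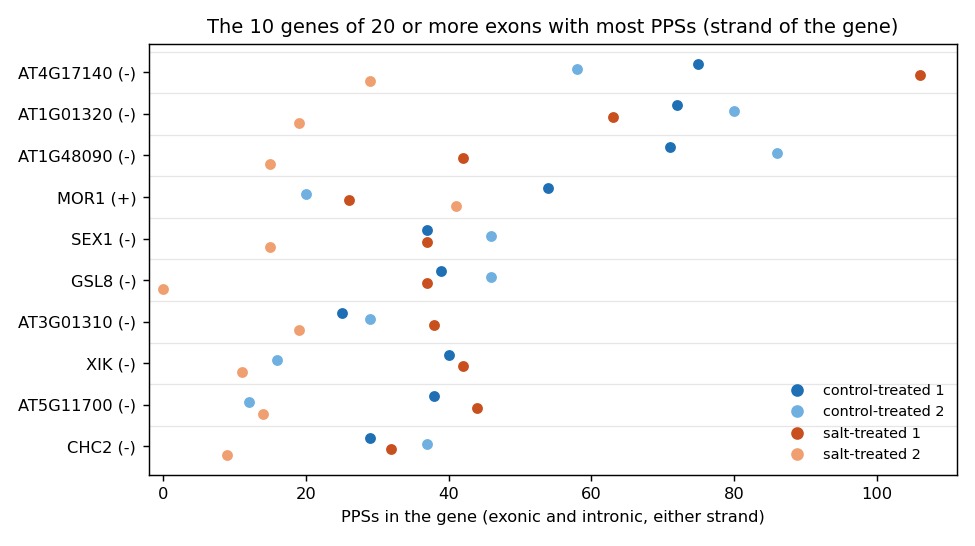
PPSs (exonic and intronic, either strand) in the 10 genes of 20 or more exons with most PPSs, 1 point per list, with the strand of the gene in brackets. Salt-treated replicate 2 was lowest in 8 of the 9 genes on the − strand, and control-treated replicate 2 in AT5G11700 and MOR1.

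Among genes with over 2 kb of exon, the densest outside these 10 were 5. AT1G18070, of a translation factor family related to EF1A, held 9.27 exonic PPSs per kb as a mean over lists, from 16, 28, 26 and 9 PPSs. LACS6, which activates long-chain fatty acids in peroxisomes, held 7.22 per kb from 19, 22, 18 and 9. F2KP, which makes and breaks down the glycolytic signal fructose 2,6-bisphosphate, held 7.14 per kb from 20, 25, 22 and 9.

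The remaining 2 were genes of leucine-rich repeat receptor kinases. AT1G07650 held 6.52 per kb and AT1G53440 held 6.44, the latter in a span that overlaps another gene, so that its PPSs may belong to either. In AT1G07650 exons held 25, 30, 26 and 9 PPSs and in AT1G53440 33, 9, 15 and 23. The list with fewest PPSs was salt-treated replicate 2 in the 4 genes on the − strand and control-treated replicate 2 in AT1G53440, on the + strand.

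Intronic PPSs gathered in few members. AT1G01320 held 55 over the 4 lists (13, 20, 18 and 4), of which 15 lay in its 792-nt intron 3 and 8 in intron 4. P5CS1, the enzyme that sets the pace of proline synthesis, held 34 in introns (11, 13, 10 and 0) of 73 in all, spread over 9 of its 20 introns. SEC8, a subunit of the exocyst that tethers secretory vesicles to the plasma membrane, held 30 of 81 in introns (8, 9, 9 and 4), with 8 in intron 12. Of the 23 distinct regions of P5CS1, 1 was in control lists only and 0 in salt lists only, and salt-treated replicate 2 had none in the gene.

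The 3 longest members with no PPS in any list were AT4G02660, a BEACH domain gene of 11374 nt, AT5G49680, related to SABRE, at 7764 nt, and AT4G32700, a DNA polymerase related to animal MUS308, at 7100 nt. ATM held 14, 0, 7 and 18 PPSs on 11880 nt, a mean of 0.779 exonic PPSs per kb. The most exons thus did not go with the most sites, and long members lay at both ends of the range.

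Gene groups were matched by symbol or synonym and do not hold every member of a family. Among the groups with over 2 matched members, genes of vesicle traffic held the most sites for their length in each list. All 7 matched genes had PPSs, at 4.55, 3.14, 2.98 and 2.27 exonic PPSs per kb. Besides AT3G08530 and SEC8 they were the exocyst genes SEC10 (13, 7, 17 and 6 PPSs), SEC6 (14, 8, 0 and 8) and SEC5A (13, 4, 0 and 10), and the dynamin-related DL3 (32, 12, 4 and 8) and ADL6 (8, 0, 5 and 13). Of the 6 callose synthases matched, 5 had PPSs, at 2.75, 2.42, 2.22 and 0.944 per kb. Over the 4 lists GSL8 held 122, CALS1 98, GSL03 87, GSL12 12, GSL11 1 and GSL04 0.

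Motor protein genes varied as widely. Of the 12 myosin and kinesin genes matched, 10 held PPSs, at 1.69, 0.948, 2.24 and 0.759 per kb. XIK held 109, MYA2 100, and XIB and VIIIB 0. Other members of these families were not matched, such as the myosin gene XIJ with 6, 0, 6 and 6 PPSs. The deubiquitinase genes UBP13 (23, 22, 23 and 14) and UBP12, with 24 regions each, were at 5.20, 4.31, 5.83 and 2.41 per kb together. Of the ABC transporter genes, ABCC1, which loads the vacuole, held 28, 8, 11 and 15 PPSs and ABCC2 held 8, 5, 6 and 7.

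In groups that act on the genome and on RNA, shares of matched genes with a site are set beside 85.8% of all members. The groups are small and not complete, so a difference between them cannot be read from these shares. Of the 7 chromatin genes 6 had PPSs, led by the remodeller CHR5 (23, 32, 17 and 0) and INO80 (22, 0, 12 and 24). Of 6 genome maintenance genes 3 had them, namely ATM, RAD50 with the same 6 regions in each list, and MSH6 with 1, 0, 1 and 1. Of 9 small RNA genes 5 had them. DCL1, which cuts miRNA precursors, held 15, 0, 14 and 26, AGO1, the miRNA slicer, 12, 15, 10 and 0, and DCL2 9, 11, 12 and 5, while AGO4, HST, NRPD1A and DCL3 held 0.

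The 5′ to 3′ exonucleases XRN4 (13, 6, 9 and 13), XRN3 and XRN2 all held some, as did the nuclear exportin XPO1A (9, 18, 0 and 18) and SAD2. The growth kinase TOR held 25, 41, 20 and 2 PPSs in 37 regions. In metabolism 5 of 6 genes had PPSs: next to SEX1 these were the acetyl-CoA carboxylases ACC1 (30, 8, 13 and 16) and ACC2 (1, 0, 0 and 0) and the ferredoxin-dependent glutamate synthases GLU1 (14, 5, 7 and 17) and GLU2 (10, 5, 7 and 8). The starch dikinase PWD held 0. ACC1 and ACC2 are neighbouring, closely related genes, and reads shared between them were not resolved here.

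Some members with roles in ion balance and proline synthesis were picked by symbol and not from a fixed list. Those picked held from 0 to 73 PPSs over the 4 lists. This is not the range of all such members, since ACA10 held 30, 12, 35 and 17 and TPC1 21, 10, 18 and 28. Beside P5CS1, the second proline synthesis gene P5CS2 held 15, 15, 14 and 0. Of the potassium antiporter genes, KEA6 held 7, 4, 12 and 5, KEA2 6, 9, 3 and 0, KEA5 1, 1, 5 and 0, KEA1 1, 0, 1 and 2, and KEA4 1 in each list. The sodium exporter SOS1 held 1, 0, 0 and 1 and the endosomal antiporter NHX6 2, 6, 0 and 0. Of the proton pump genes, VHA-A held 14, 7, 0 and 15, HA4 2, 1, 2 and 1, HA11 0, 1, 1 and 4, and AHA10 0 in each list. Of the genes picked, all but KEA4, KEA6 and HA4 thus had a list with no PPS.

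Salt and control lists could not be told apart from the gaps between lists. Pooled over the members, the log2 ratio of salt to control exonic PPSs per kb was −0.25, but it was 0.33 in + strand genes and −0.63 in − strand genes. It was −0.06 without control-treated replicate 1, −0.41 without control-treated replicate 2, −0.51 without salt-treated replicate 1 and −0.03 without salt-treated replicate 2, so single lists decided its size. For dsRNase calls in windows that all lists covered it was 0.24. Genes of 2 to 19 exons gave 0.38, −0.57 and 0.15 in the same order, so the direction went with the strand in both classes. The control lists shared more of their ranking of members by density (Spearman rho 0.71 over 400 genes) than the salt lists (0.46), and replicate 1 of each condition correlated at 0.73 against 0.23 for replicate 2.

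Gene by gene, 24 of 273 members with at least 8 PPSs had more in both salt lists than in both control lists (8.79%, against 8.4% of all genes), and 58 had fewer (21.2%, against 16.4%). All 24 were on the + strand and in windows that some list lacked. Of the 58, 48 were on the − strand, 57 in such windows, and 41 had a list with no PPS. With 2 lists against 2, an exact permutation test could not give a two-sided p below 0.33.

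For dsRNase calls where all 4 lists held calls, 3 of 95 members were higher in both salt lists (against 1.84% of all genes) and 0 of 95 were lower (against 0.418%). The 3 were emb2742, a CTP synthase family gene, with 4, 4, 7 and 5 PPSs, AT5G11700 with 13, 6, 35 and 14, and SNL2, a SIN3-like co-repressor gene, with 8, 3, 27 and 10. In each the lowest salt value stood 1 or 2 PPSs above the highest control value.

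The structure score of a base is a generalized log ratio of reads from double-stranded to reads from single-stranded RNA, so a higher score means more pairing. The authors scaled it to the mean of the transcript. Because the CDS made up a median 87.6% of a member's length, its mean was held near 0 and the UTRs moved against it by construction. The mean CDS score over transcripts was 0.0175 (SD 0.0648) in control and 0.0257 (SD 0.0554) in salt. The difference of 0.0082 was small beside the spread over transcripts and depended on how bases were summarized. It was 0.017 with scores limited to −3 to 3 and 0.067 with the median in place of the mean over bases, where the control value was −0.040.

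Around the CDS the score was lower. The 3′ UTR averaged −0.192 in control and −0.322 in salt, and the 5′ UTR −0.146 and −0.111, and the CDS lay above the 3′ UTR in 59.3% and 66.9% of member transcripts. In the first 100 nt of the 3′ UTR the mean was −0.0794 (SEM 0.0470) in control and −0.331 (SEM 0.0402) in salt. Transcripts of 2 to 19 exons had −0.107 and −0.208 there, so both classes were lower in salt. Over the whole 3′ UTR the mean difference, salt minus control, was −0.123 in the members, −0.132 in transcripts of 2 to 19 exons and −0.145 in those of under 20 exons with as long a CDS, so the wider gap of the members next to the stop codon was not seen there. The first 100 nt of the CDS went the other way, at −0.0888 (SEM 0.0342) in control and 0.0168 (SEM 0.0318) in salt. Transcripts of 2 to 19 exons had 0.0263 and 0.0644 there, and those of under 20 exons with as long a CDS −0.0583 and 0.0032. All of these classes were thus higher in salt in this window. These SEMs are over transcripts, some of which share exons, and do not cover the error between plants.

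In the members the ends of the CDS stood close to each other in mean score. In control both lay low, at −0.0888 in the first 100 nt and −0.0809 (SEM 0.0362) in the last 100 nt. In salt these were 0.0168 and −0.0101 (SEM 0.0320). In the last 100 nt transcripts of 2 to 19 exons had −0.0173 and 0.0055, and those with as long a CDS −0.0158 and −0.0410. A difference between ends does not show a dip at both. The first of the 5 CDS parts minus the last was 0.0091 in control and −0.0202 in salt, with SDs over transcripts of 0.636 and 0.455. Transcripts of 2 to 19 exons gave 0.0796 and 0.0754. Of these, transcripts of 2 to 9 exons gave 0.104 and 0.0904, and those of 10 to 19 exons 0.0165 and 0.0358. Transcripts of under 20 exons with a CDS as long as the members' gave −0.0442 and 0.0511. The decline along the CDS of transcripts of 2 to 9 exons was thus not seen in the members as a whole in either condition. It was also small in those of 10 to 19 exons, so a small difference between the ends was not particular to the members. In the other long transcripts the decline was seen in salt and not in control. In the members the control value changed sign to −0.0105 with 1 transcript per gene and to −0.0026 with at least 80% of CDS bases scored. The 125 transcripts of 19 exons had −0.0316 and 0.0529 and the 105 of 20 exons 0.0597 and 0.0079 for the same difference. The 81 member transcripts of 21 exons had 0.113 and 0.0546, a decline in both conditions.

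**Figure D5:**
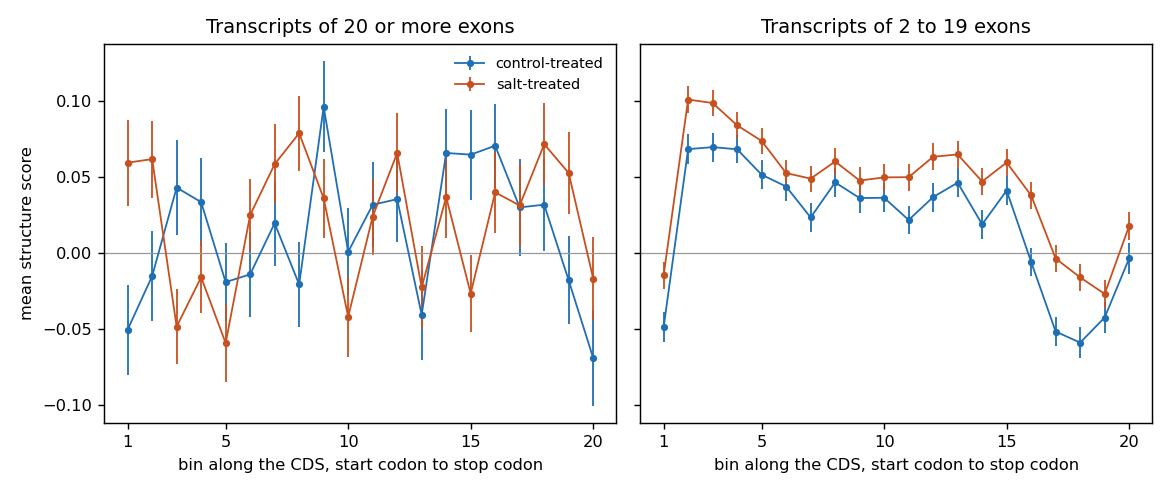
Mean structure score in 20 equal bins of the CDS, from start to stop codon, for transcripts of 20 or more exons (left) and of 2 to 19 exons (right). Points are means over transcripts and bars are SEMs over transcripts, with 1 merged value per condition. The members' bins stay between −0.1 and 0.1 in both conditions.

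Below the scale of the whole CDS, the 2 conditions agreed little. The median correlation between control and salt scores over the bases of a CDS was 0.20 in the members and 0.21 over all transcripts. Over 7341 coding exons of the members scored in both tables, Pearson's r was 0.26 and Spearman's rho 0.23, as a description over exons that share libraries. Coding exons of 200 nt or more had mean scores of 0.0640 and 0.0644 in control and salt, and those under 60 nt −0.0291 and −0.0685. Exons below 40% GC had 0.0062 and −0.0925, and those at 45% or more −0.0305 and 0.0482, so the order by GC content was not the same in the 2 conditions.

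Few members shifted between conditions at the level of the CDS. Among the 525 member transcripts with at least 80% of CDS bases scored in both tables, the mean rose by over 0.1 in 53 of 525, against 30.6% of all transcripts. It fell by over 0.1 in 28 of 525 (5.33%), against 20.4% of all. In transcripts of 10 to 19 exons the shares were 23.2% and 17.6%. A long CDS that fills the transcript is held near 0 by the scaling, and the shares were not corrected for this.

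The 3 largest rises were in KEA6, a potassium antiporter gene, from −0.253 to 0.0177, in SEC10, from −0.134 to 0.0602, and in emb2742, from −0.0186 to 0.172. Their 3′ UTR scores went from 0.793 to −0.209, from 1.16 to −0.518 and from 0.544 to −0.778. The 3 largest falls were in DL3, from 0.131 to −0.0114, in NOXY38, a gene for the placing of mitochondria, from 0.114 to −0.0364, and in AT3G14120, a nuclear pore gene, from 0.162 to −0.0104. In these the 3′ UTR rose, from −1.36 to 0.166 in DL3, from −1.24 to 0.339 in NOXY38 and from −1.61 to −0.190 in AT3G14120. The NOXY38 values are of a transcript of 28 exons and the AT3G14120 values of a transcript of 24. The transcripts that represent these genes elsewhere had 29 and 25 exons.

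In the leading genes the CDS means moved little. AT4G17140 stood at 0.0063 in control and 0.0212 in salt, AT1G48090 at 0.0039 and 0.0126, and MOR1 at 0.0348 and 0.0328. The P5CS1 transcript of 21 exons that represents the gene rose from −0.0694 to 0.0483 while its 3′ UTR went from 0.427 to −0.0778. The P5CS1 transcript with 20 exons and a longer spliced sequence stood at 0.0206 and 0.0283, so the shift differed between models of 1 gene that share their CDS bases.

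Bases under PPSs had lower structure scores than the rest of the CDS. In the members the mean under PPSs was −0.228, −0.332, −0.166 and −0.195, and outside them 0.0566, 0.0690, 0.0507 and 0.0561. Genes with a higher mean under their PPSs made up between 11.1 and 28.6% of the 237 to 290 genes compared per list. In the genes compared in each list, PPSs covered 14.6, 12.9, 12.6 and 11.2% of scored CDS bases. The GC content there was 44.4, 44.4, 44.1 and 44.3% under PPSs against 43.4% outside in each list. Members with too few bases under PPSs were left out, so these shares are not the cover over all members.

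The size of this gap differed with the RNase of the call. Under dsRNase PPSs the mean was −0.251, −0.465, −0.233 and −0.315, and under ssRNase PPSs −0.198, −0.249, −0.106 and −0.0730. Genes of 2 to 19 exons showed the same order, with −0.200, −0.320, −0.170 and −0.160 under PPSs of either RNase. PPSs were called against the structure-only libraries from which the scores were made, so that the 2 measures are not independent, and what part this plays in the gap was not tested.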

How the data were processed

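The authors trimmed reads with cutadapt (1.2.1 in their processing notes) and aligned them with TopHat2 2.0.10 to TAIR10. They called PPSs with a modified CSAR at a false discovery rate of 5% and deposited, for each PPS, the caller's score, which has no fixed unit. The deposited structure tables give a score per base of the spliced transcript, a generalized log ratio with replicates merged, scaled to the transcript mean. No counts were used, so depth and transcript abundance are unknown and no interval is given.

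The members and gene lists were chosen with earlier results of these data known. Genes named are the 10 with most PPSs, the 5 densest others with over 2 kb of exon, the 3 with most intronic PPSs, the 3 largest rises and falls of the CDS score, the gene with most exons, the longest, the 3 longest without PPSs, and the leader of each gene group. Other genes named, such as further group members, the ion balance genes picked by symbol, P5CS2 and SNL2, came from lists or calls, or were chosen after their values were seen.

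A PPS was placed in an exon or intron of the representative transcript by its midpoint, on either strand, and 3000 of 3000 planted PPSs in 400 genes were placed correctly in simulated data. All 14460 CDSs opened with ATG and closed with a stop codon in the TAIR10.1 sequence, from which letters were read. Of the members, 252 had a symbol in the RefSeq table. Organellar models and PPSs (between 32 and 75 per list) and the lncRNA tables were left out. Python 3.11.15, numpy 2.4.6, scipy 1.17.1 and matplotlib 3.10.9 were used. Alternatives covered the overlap rule, call strand, score, calls in 1 list, exon minimum, each replicate number left out in both conditions, score limits and medians. Gene strand, covered windows, comparison genes as long and each list left out were added after seeing the data.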

Additional observations from a re-analysis of the deposited data

How the results depend on the processing

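Of 103 alternative values for 9 results, 79 stayed within the spread and the others are given here. The sign was opposite to the reported one in 6: 3 of the log2 ratio of salt to control, the median control CDS score, and the control CDS profile with 1 transcript per gene (−0.0105) and at 80% of CDS bases scored (−0.0026). The main values were 1.66 exonic and 0.116 intronic PPSs per kb, a ratio of 1.61 to genes of 2 to 19 exons and a log2 ratio of salt to control of −0.25. Leaving out replicate 1 or 2 of both conditions gave 1.42 to 1.89, 0.0960 to 0.135, 1.56 to 1.67 and −0.32 to −0.19. Leaving out 1 list gave 1.54 to 1.79, 0.102 to 0.129, 1.58 to 1.68 and −0.51 to −0.03. Counting an intronic PPS only where it overlapped no exon, or lay wholly inside, gave 0.0708 per kb. On the gene's strand only, the values were 1.00 exonic and 0.0731 intronic per kb and a log2 ratio of 0.29. With scores above the list's median they were 0.804 and 0.0529, with calls in no other list 0.489 and 0.0335, and as medians over genes 0.912 and 0. The ratio was 1.91 at 25 or more exons and 1.36 against genes as long, and medians gave no ratio because the comparison genes' median was 0 in a list. Genes as long, covered windows, gene strands and single lists left out were chosen after seeing the data. Covered dsRNase windows gave a log2 ratio of 0.24, + strand genes 0.0765 intronic PPSs per kb, a ratio of 1.44 and a log2 ratio of 0.33, and − strand genes 0.152, 1.75 and −0.63. The control CDS score was 0.0080 with scores limited to −3 to 3 and −0.040 as the median over bases, and the difference 0.017 and 0.067. The causes were not tested, other than that fewer calls enter some settings by construction. No paired test was made, and the replicate numbers do not say whether control and salt replicates were grown or handled together. The log2 ratio of salt to control was −0.19 within replicate 1 and −0.32 within replicate 2. The merged structure tables and unknown depth limit all comparisons between conditions.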
